A study of Mus musculus with 20 samples.

Results

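At the loci of 7 genes that build or mark hypothalamic neurons, most of the intervals read by a methylation assay held almost no reads, and the clearest change lay in the window of the oxytocin and vasopressin genes. The loci were 6 windows on the mm9 mouse genome, each given by its chromosome, start and end. Every interval of the deposited table that overlapped a window was taken. This gave 28 intervals of 50782 in the table: 1 at Pomc, 5 at Oxt and Avp, 3 at Nr5a1, 5 at Nkx2-1, 9 at Sim1 and 5 at Otp. That each window holds its gene is taken from the rule and was not checked, since no mm9 annotation was used. Of the 28, 27 lay wholly inside their window, and the Pomc interval ran past the end of its window.

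The study used inbred male C57BL/6 mice with no transgene or treatment named in the labels. The 4 groups had 5 libraries each: neurons and non-neurons at postnatal day 21 (P21), and neurons and non-neurons on the day of birth (P0). Nuclei were sorted by staining for NeuN, a protein of neuronal nuclei, and each library came from 2 pooled hypothalami of one age. Sorted neurons mix all neuron types of the hypothalamus, so a value here is an average over cells that use a gene and cells that do not. The assay reads DNA only, so no RNA marker could be used to check the sorted groups. The labels call the 5 samples of a group biological replicates.

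The method, methylation-specific amplification, cuts CCCGGG sites with SmaI when they are unmethylated and then with XmaI, which also cuts methylated ones. Adaptors are joined to the XmaI ends only, so a stretch is copied only where both sites that bound it carry methylation. The value of an interval is its reads as CPM (the count scaled to a fixed library size, with library sizes adjusted by TMM, a factor that evens out composition). It is a relative measure of methylation at 2 flanking sites and not a percent of molecules. Library totals ran from 5663740 to 9998110 reads. Levels depend on interval length, so the standing of an interval is given among intervals of like length, taken as 0.8 to 1.25 times their own. Of the 50782 intervals, 26679 had enough reads to be tested.

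As background, Pomc encodes the precursor of melanocortin peptides, made by arcuate neurons that restrain feeding. Oxt and Avp encode oxytocin and vasopressin, peptide hormones of large neurons in the paraventricular and supraoptic nuclei, and the 2 genes are neighbours. Nr5a1 encodes SF-1, the nuclear receptor that marks the ventromedial nucleus. Nkx2-1 encodes a homeodomain factor that patterns the ventral hypothalamus. Sim1 and Otp encode transcription factors that mouse embryos need to form oxytocin and vasopressin neurons. Genes of this kind often start in CpG-rich stretches that stay unmethylated, also in cells that do not transcribe them.

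To show what the assay reads, RefSeq promoter sequences (GRCm38.p6, 250 bases before to 50 after the gene start) were searched for CCCGGG, a palindrome that reads alike on both strands. A promoter was given for 6 of the 7 genes, all but Nr5a1. The letters were present in 2 of these 6, Sim1 and Nkx2-1, against 13.5% of 32851 mouse promoters. Both are printed 5′ to 3′ on the strand of the gene, with the cut site in capitals. These GRCm38 positions cannot be set against the mm9 positions of the intervals, and which interval end is which site was not determined.
Sim1, chr10:50895401-50895700, plus strand: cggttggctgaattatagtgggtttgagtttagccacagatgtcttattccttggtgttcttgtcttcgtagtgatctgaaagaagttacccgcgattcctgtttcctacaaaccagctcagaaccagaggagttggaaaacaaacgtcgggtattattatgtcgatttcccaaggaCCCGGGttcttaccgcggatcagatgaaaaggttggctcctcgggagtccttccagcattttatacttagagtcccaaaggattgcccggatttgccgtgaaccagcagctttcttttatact
Nkx2-1, chr12:56536859-56537158, minus strand: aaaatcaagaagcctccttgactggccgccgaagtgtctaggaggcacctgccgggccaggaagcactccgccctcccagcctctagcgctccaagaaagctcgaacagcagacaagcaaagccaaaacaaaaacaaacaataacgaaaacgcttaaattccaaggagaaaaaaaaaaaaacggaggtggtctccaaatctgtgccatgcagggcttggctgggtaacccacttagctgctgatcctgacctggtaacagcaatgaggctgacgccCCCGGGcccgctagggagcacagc
In Sim1 the site began 73 bases before the gene start and in Nkx2-1 it began 26 bases after it. The promoters of Pomc, Oxt, Avp and Otp held no such letters in this stretch, which says nothing about sites farther away. No mm9 gene annotation was used, so an interval is placed here in its window and not in a promoter, exon or intron.

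Within a locus the intervals are numbered along the chromosome. At the 5 loci with several intervals all of them touched, which gives 22 pairs that share a cut site and so are not independent. The 9 Sim1 intervals covered 8295 bp near the start of a window of 110000 bp. The 5 at Otp covered 7250 bp, the 5 at Nkx2-1 3559 bp and the 3 at Nr5a1 1776 bp. The Oxt and Avp window held 7423 bp of intervals, and which of the 2 genes an interval belongs to was not determined. The nearest intervals outside the windows lay 5026 to 275800 bp away.

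Only the windows of the peptide genes held intervals with enough reads to be tested. Mean levels overlapped between the 2 kinds of locus, at 1.00 CPM in Sim1 interval 1 and 0.515 CPM in Oxt/Avp interval 4. The Pomc interval and 3 of the 5 Oxt and Avp intervals passed the filter on low counts, and none of the 22 intervals at Nr5a1, Nkx2-1, Sim1 and Otp did. Among all intervals of the table, 52.5% passed. The 9 transcription factor intervals of at least 1000 bp averaged 0.0390 to 0.331 CPM, and only 2.64% to 11.3% of like-length intervals were lower. The length limit of 1000 bp was chosen after the values were seen. The 11 shorter transcription factor intervals with reads stood above 18.3% to 59.9% of theirs. Those of 60 to 394 bp stood above 48.0% to 59.9%. Intervals under 400 bp were low across the table too, with medians of 0.00865 to 0.261 CPM by range of length. Those of 461 to 769 bp stood above only 18.3% to 35.3%. Intervals of 400 to 800 bp were not low across the table, since their median was above the 1.94 CPM of the longest range. The Pomc interval stood above 50.1% of like-length intervals and those of Oxt and Avp above 24.1% to 62.7%.

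**Figure D1:**
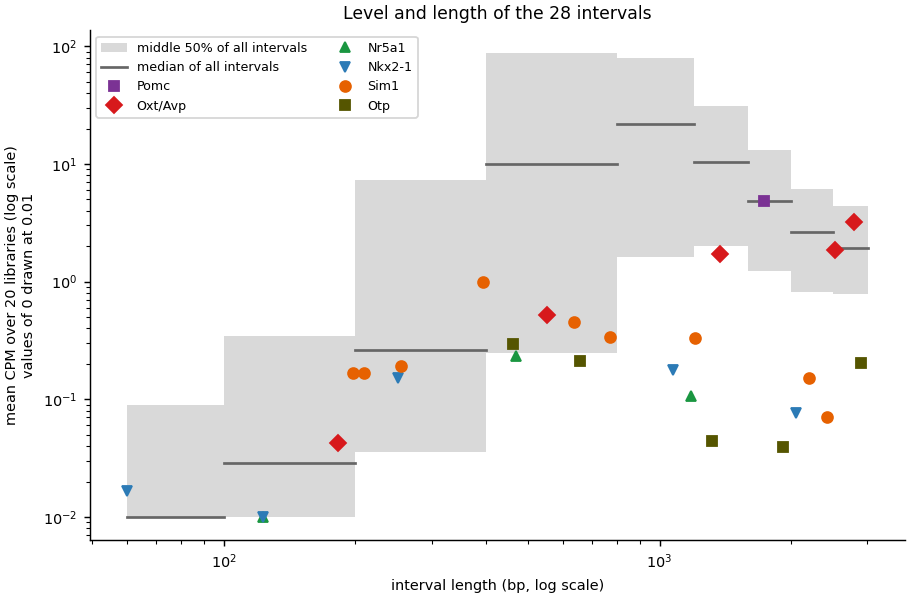
Mean CPM over the 20 libraries against interval length, both on log scales, for the 28 intervals. Grey boxes hold the middle 50% of all 50782 intervals in each range of length. The long intervals at Nr5a1, Nkx2-1, Sim1 and Otp, at 0.0390 to 0.331 CPM, lie under the boxes, and the Pomc interval lies on the median line.

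Pomc was read by 1 interval, chr12:3968526-3970264 (mm9, 1738 bp), near the end of its window. In RefSeq gene order Pomc lies between Dnmt3a and Efr3b, and which of these genes the interval is in or nearest to was not determined. P21 neurons had 4.81, 5.46, 4.20, 4.40 and 6.10 CPM, and P21 non-neurons had 6.00, 5.62, 6.18, 5.56 and 6.22 CPM. P0 neurons had 2.94, 4.50, 2.99, 5.49 and 5.91 CPM, and P0 non-neurons had 4.89, 3.69, 1.91, 5.25 and 5.04 CPM. All 5 P21 non-neuron libraries lay above all 5 P0 non-neuron libraries, and the other pairs of groups overlapped.

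None of the comparisons passed the test at this interval. With age, the log2 difference in non-neurons was 0.52 ± 0.24 (SE; adjusted p = 0.0584 in edgeR), and in neurons it was 0.19 ± 0.23 (adjusted p = 0.513, 95% interval -0.27 to 0.65). Neurons differed from non-neurons by -0.24 ± 0.22 at P21 (adjusted p = 0.421) and by 0.09 ± 0.25 at P0 (adjusted p = 0.900). The age difference in non-neurons sat close to the threshold. It passed with library totals alone (adjusted p = 0.0110), with limma-voom (0.0291), without P0 non-neuron replicate 4 (0.0384) and without replicate 5 (0.0468). With the trend of reads with interval length removed it was 0.12 (adjusted p = 0.662).

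The clearest change was in Oxt/Avp interval 5, chr2:130406974-130409764 (2790 bp), which lost reads with age in both cell types. P21 neurons had 1.27, 1.94, 1.33, 2.53 and 1.58 CPM, and P0 neurons had 9.0, 4.65, 4.22, 5.32 and 5.16 CPM. P21 non-neurons had 1.26, 1.40, 0.618, 1.95 and 0.940 CPM, and P0 non-neurons had 4.59, 3.53, 3.67, 4.17 and 5.04 CPM. In both cell types every P21 library was below every P0 library.

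Interval 5 fell to 1.73 ± 0.52 CPM in P21 neurons, against 5.67 ± 1.91 in P0 neurons (SD, n = 5 each). The log2 fold change was -1.69 ± 0.28, or 3.23-fold lower (SE, edgeR adjusted p = 1.76e-06). In non-neurons it averaged 1.23 ± 0.50 CPM at P21 and 4.20 ± 0.63 at P0 (SD, n = 5 each). There the change was -1.77 ± 0.31, or 3.41-fold lower (SE, adjusted p = 6.05e-06). The change did not differ detectably between cell types, with an interaction of 0.08 ± 0.40 (SE, adjusted p = 0.935, 95% interval -0.70 to 0.85). Neurons and non-neurons were not called different at P21 (0.51 ± 0.32, adjusted p = 0.231) or at P0 (0.43 ± 0.26, adjusted p = 0.389). Of all tested intervals 57.3% changed with age in neurons and 54.3% in non-neurons, so a call alone was common. Library totals of the neurons did not overlap between the ages, at 7810593 to 9998110 reads in P21 neurons and 6238989 to 7656343 in P0 neurons. In non-neurons they overlapped, at 6078113 to 7913117 at P21 and 5663740 to 8114098 at P0. The part of library totals in either fall was not tested.

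One interval away, Oxt/Avp interval 3 (chr2:130405045-130406421, 1376 bp) was highest in P21 neurons. P21 neurons had 2.28, 3.70, 2.56, 2.97 and 1.70 CPM, and P21 non-neurons had 0.976, 1.26, 2.60, 1.39 and 0.822 CPM. P0 neurons had 1.04, 2.25, 1.06, 1.20 and 1.21 CPM, and P0 non-neurons had 1.83, 2.08, 1.22, 1.08 and 1.26 CPM. P21 neurons overlapped each other group: 1 P21 non-neuron library, 1 P0 neuron library and 2 P0 non-neuron libraries lay above the lowest P21 neuron library at 1.70 CPM.

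Reads of interval 3 rose in neurons with age, by 1.94-fold, or 0.95 ± 0.35 in log2 units (SE; adjusted p = 0.0171 in edgeR). At P21 they were higher in neurons than in non-neurons by 0.90 ± 0.33, or 1.87-fold (SE, adjusted p = 0.0298), where 35.8% of tested intervals differed. In non-neurons the age difference was -0.08 ± 0.37 (adjusted p = 0.870), and at P0 the cell types differed by -0.13 ± 0.38 (adjusted p = 0.912). The interaction was 1.03 ± 0.51 (unadjusted p = 0.0484 in edgeR, adjusted p = 0.196), so the rise was not shown to differ between the cell types.

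Both calls at interval 3 were fragile. The difference at P21 missed the threshold in 6 of 10 fits that left out 1 library: without P21 neuron replicate 2 (adjusted p = 0.108) or 4 (0.0583) and without P21 non-neuron replicate 1 (0.0741), 2 (0.0550), 4 (0.0522) or 5 (0.0903). It also missed with upper-quartile scaling (0.0725) and with the length trend removed (0.0536). The rise with age was lost without P21 neuron replicate 2, the deepest library (0.0656), and with the length trend removed (0.0754).

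The other intervals of the Oxt and Avp locus had no call in the main test. Interval 2 (chr2:130402524-130405045, 2521 bp) averaged 1.91 ± 0.69 CPM in neurons and 2.09 ± 0.98 in non-neurons at P21. At P0 it averaged 1.62 ± 0.70 CPM in neurons and 1.81 ± 0.46 in non-neurons (SD, n = 5 each). Its 4 two-group differences ran from -0.16 to 0.24 on the log2 scale, with edgeR adjusted p from 0.582 to 0.883. Interval 2 shares a cut site with interval 3, and whether the 2 intervals differ in their course was not tested. Interval 1 (chr2:130402341-130402524, 183 bp) had 7 reads in all 20 libraries, 5 of them in P21 neurons.

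**Figure D2:**
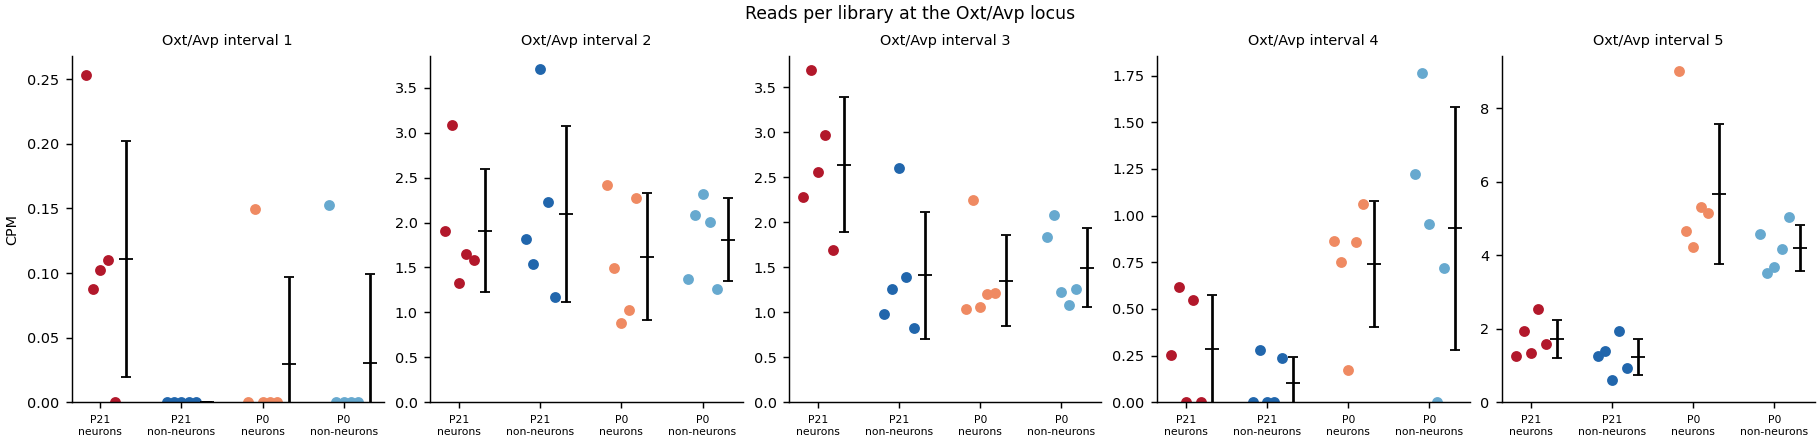
CPM of each library at the 5 Oxt/Avp intervals, each panel with its own axis from 0, for P21 neurons, P21 non-neurons, P0 neurons and P0 non-neurons. Points are libraries, and the bar beside them is mean ± SD (n = 5). In interval 5 both P21 groups lie below both P0 groups, and in interval 3 P21 neurons have the highest mean, 2.64 CPM.

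**Figure D3:**
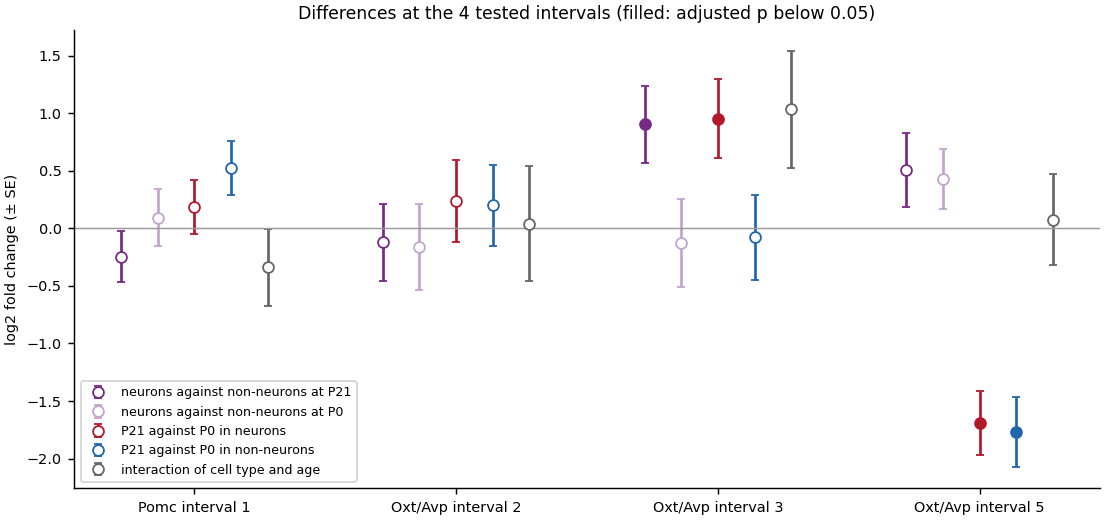
Log2 fold change ± SE of the 4 tested intervals in the 4 two-group comparisons and the interaction. Filled points have an adjusted p under 0.05. Interval 5 is near -1.7 in both cell types with age, and the filled points of interval 3 are the rise in neurons and the difference at P21.

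Counted over the 4 tested intervals, 1 differed between neurons and non-neurons at P21 and 0 at P0, while 2 changed with age in neurons and 1 in non-neurons. The interaction was called at 0. Over all tested intervals the shares called were 35.8%, 9.78%, 57.3%, 54.3% and 14.1%. At P0, 0 of the 4 had an unadjusted p under 0.05 in edgeR, and DESeq2 and limma-voom called 0. For the interaction 1 of the 4 had an unadjusted p under 0.05, and DESeq2 and limma-voom called 0. The median log2 fold change of the 4 ran from -0.02 to 0.21 over the 5 comparisons, and that of all tested intervals from -0.06 to 0.06.

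The transcription factor loci held few reads in every group, and Sim1 interval 1 held the most, 148. Over their 22 intervals, which span 20880 bp, 622 reads were counted in 20 libraries, and the highest value of a single library was 19 reads. Nr5a1 interval 3 and Nkx2-1 interval 4, both 123 bp long, had 0 reads, which allows up to 0.0203 CPM over all libraries pooled (3 reads). Of all intervals, 12.3% had none. The following comparisons come from a fit of all 44545 intervals with a read, without a filter on low counts. In it 26 of the 28 intervals were tested, 20 of them at these 4 loci.

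**Figure D4:**
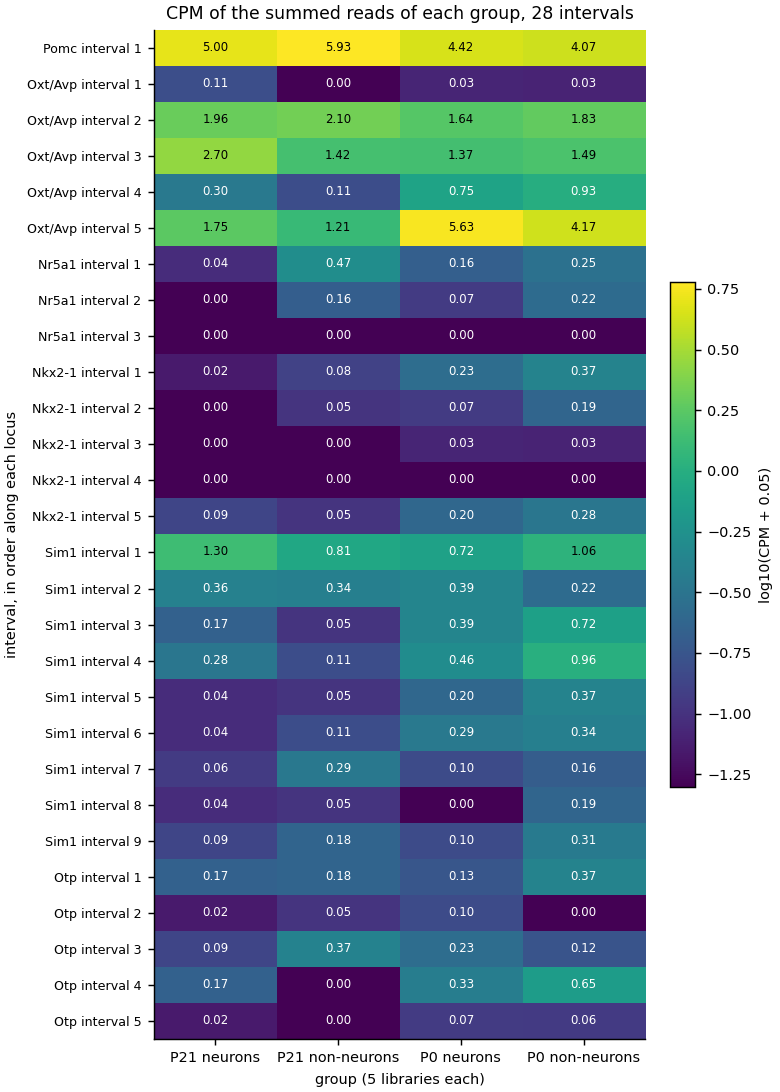
CPM of the pooled reads of each group (5 libraries each) for the 28 intervals, with colour on a log10 scale after adding 0.05. Values above 1 CPM are found at Pomc, at Oxt/Avp intervals 2, 3 and 5 and at Sim1 interval 1, and the other intervals stay below it.

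Sim1 held most of these reads, 408 over its 9 intervals. Summed over the locus, P21 neurons had 2.79, 2.20, 0.922, 3.52 and 2.71 CPM, and P21 non-neurons had 2.37, 3.23, 0.866, 1.95 and 1.76 CPM. P0 neurons had 2.94, 3.45, 2.81, 2.06 and 1.97 CPM, and P0 non-neurons had 4.89, 4.65, 3.13, 3.55 and 5.76 CPM. P0 non-neurons were highest on average and overlapped each other group through single libraries. Interval 1 (chr10:50611915-50612309, 394 bp), at the edge of the chain, was the most read and the only transcription factor interval with reads in all 20 libraries. At P21 it averaged 1.34 ± 0.60 CPM in neurons and 0.845 ± 0.518 in non-neurons. At P0 it averaged 0.734 ± 0.375 CPM in neurons and 1.09 ± 0.62 in non-neurons (SD, n = 5 each), and none of its comparisons was called.

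Farther along the chain, Sim1 intervals 3, 4 and 5 fell with age in non-neurons. Interval 4 (chr10:50614281-50614919, 638 bp) had 0, 3, 1, 0 and 0 reads in P21 non-neurons and 9, 4, 7, 2 and 9 in P0 non-neurons. This is a 9.18-fold fall of the pooled CPM (edgeR without filter, adjusted p = 0.000933). The P21 to P0 ratio was 0.109, with a 95% counting interval of 0.0279 to 0.308. Interval 3 (chr10:50613512-50614281, 769 bp) had 2, 0, 0, 0 and 0 reads at P21 and 9, 7, 0, 2 and 5 at P0. Its P21 to P0 ratio was 0.0734 with a 95% counting interval of 0.00839 to 0.297 (exact Clopper-Pearson, adjusted p = 0.00269 in edgeR). Interval 5 (chr10:50614919-50615129, 210 bp) had 2 reads at P21 and 12 at P0 (ratio 0.141, 0.0153 to 0.632, edgeR adjusted p = 0.0422). Every P0 non-neuron library of interval 5 lay above every P21 non-neuron library. The reads were 2, 2, 3, 2 and 3 against 0, 1, 1, 0 and 0, so this separation rests on few reads. The calls of intervals 3 and 4 held in all 10 fits that left out 1 library, and that of interval 5 in 2 of 10, with adjusted p from 0.0354 to 0.0986. In neurons these intervals showed log2 age differences of -1.14 ± 0.85, -0.66 ± 0.71 and -1.80 ± 1.06 (SE; adjusted p in edgeR = 0.306, 0.486 and 0.177), and none of their interactions was called.

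The other 5 Sim1 intervals were not called in edgeR. Interval 2 (chr10:50612309-50613512, 1203 bp) had 17 reads in P21 neurons, 13 in P21 non-neurons, 12 in P0 neurons, and 7 for P0 non-neurons. Interval 6 (chr10:50615129-50615384, 255 bp) had 2, 4, 9 and 11 reads in the same order of groups, and interval 9 (chr10:50620012-50620210, 198 bp) had 4, 7, 3 and 10. The 2 longest, interval 7 (chr10:50615384-50617587, 2203 bp) and interval 8 (chr10:50617587-50620012, 2425 bp), had the fewest reads for their length. Interval 7 had 3, 11, 3 and 5 reads and interval 8 had 2, 2, 0 and 6. Only 7.74% and 4.58% of like-length intervals were lower.

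Otp showed the same at 1 interval, and its neighbours had at most 6 reads in a library. Otp interval 4 (chr13:95643403-95643864, 461 bp) had 0 reads in all P21 non-neuron libraries and 8, 5, 2, 2 and 4 in P0 non-neurons. The fall was called (edgeR without filter, adjusted p = 0.000187), and the call held without each library in turn. With the empty group set at a floor of 3 reads, the pooled CPM was 8.29-fold lower at P21. Counting error of the P0 reads is not in this fold. P21 neurons had 0, 2, 0, 2 and 4 reads and P0 neurons had 0, 1, 6, 3 and 0. P21 neurons were called above P21 non-neurons at this interval (edgeR adjusted p = 0.0494), by 2.16-fold against the same floor. That call was lost in 8 of 10 fits without 1 library, with adjusted p up to 0.158. The interaction had an edgeR adjusted p of 0.0574, and it passed in 6 of 20 fits without 1 library, with adjusted p as low as 0.0191. Of the other 4 Otp intervals none was called. Interval 1 (chr13:95638530-95639186, 656 bp) had 8 reads in P21 neurons, 7 in P21 non-neurons, 4 in P0 neurons, and 12 for P0 non-neurons, and interval 3 (chr13:95640508-95643403, 2895 bp) had 4, 14, 7 and 4. Intervals 2 (chr13:95639186-95640508, 1322 bp) and 5 (chr13:95643864-95645780, 1916 bp) had 6 and 5 reads in all 20 libraries. Summed over Otp, P21 neurons averaged 0.485 ± 0.449 CPM and P21 non-neurons 0.596 ± 0.322, while at P0 the level was 0.867 ± 0.459 in neurons and 1.22 ± 0.44 in non-neurons (SD, n = 5 each).

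The Nr5a1 locus had its few reads mostly outside P21 neurons. Nr5a1 interval 1 (chr2:38565908-38566377, 469 bp) had 0, 0, 0, 0 and 2 reads in P21 neurons and 2, 6, 6, 4 and 0 in P21 non-neurons. The ratio of neurons to non-neurons was 0.0901 with a 95% counting interval of 0.0101 to 0.376 (edgeR without filter, adjusted p = 0.0159), and the call held in all 10 fits without 1 library. P0 neurons had 5 reads in all and P0 non-neurons 8. Interval 2 (chr2:38566377-38567561, 1184 bp), which shares a cut site with interval 1, had 0 reads in P21 neurons, against 6 for P21 non-neurons. With the empty group set at a floor of 3 reads, that is 2.47-fold lower in neurons (edgeR adjusted p = 0.0450). Counting error of the 6 reads is not in this fold. The call was lost in 8 of 10 fits without 1 library, with adjusted p up to 0.234. It was not made by limma-voom (adjusted p = 0.0543). The 2 intervals held 48 reads in 20 libraries, so these differences rest on few reads.

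Nkx2-1 had 56 reads over its 5 intervals, and none of its intervals was called in edgeR. The locus summed to 0.253, 0.176, 0, 0.110 and 0 CPM in P21 neurons and to 0, 0.562, 0.247, 0 and 0.117 CPM in P21 non-neurons. At P0 it summed to 0.865, 0.450, 0.879, 0 and 0.455 CPM in neurons and to 1.68, 0.321, 0.817, 0.926 and 0.540 CPM in non-neurons. Interval 1 (chr12:57634305-57635378, 1073 bp) had 1 read in P21 neurons, 3 in P21 non-neurons, 7 in P0 neurons, and 12 for P0 non-neurons, and limma-voom called it lower at P21 in both cell types (adjusted p = 0.0214 in neurons and 0.00958 in non-neurons). Interval 5 (chr12:57637613-57637864, 251 bp) had 4, 2, 6 and 9 reads in that order, and limma-voom called it lower at P21 in non-neurons (adjusted p = 0.0386). Interval 2 (chr12:57635378-57637430, 2052 bp) had 0, 2, 2 and 6 reads, and interval 3 (chr12:57637430-57637490, 60 bp) had 2 reads in all. Reads were thus fewer at P21 than at P0 in each of these intervals. A library without reads at an interval allows up to 0.264 to 0.540 CPM there (3 reads), so differences of this size between single libraries were not detectable at this depth.

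**Figure D5:**
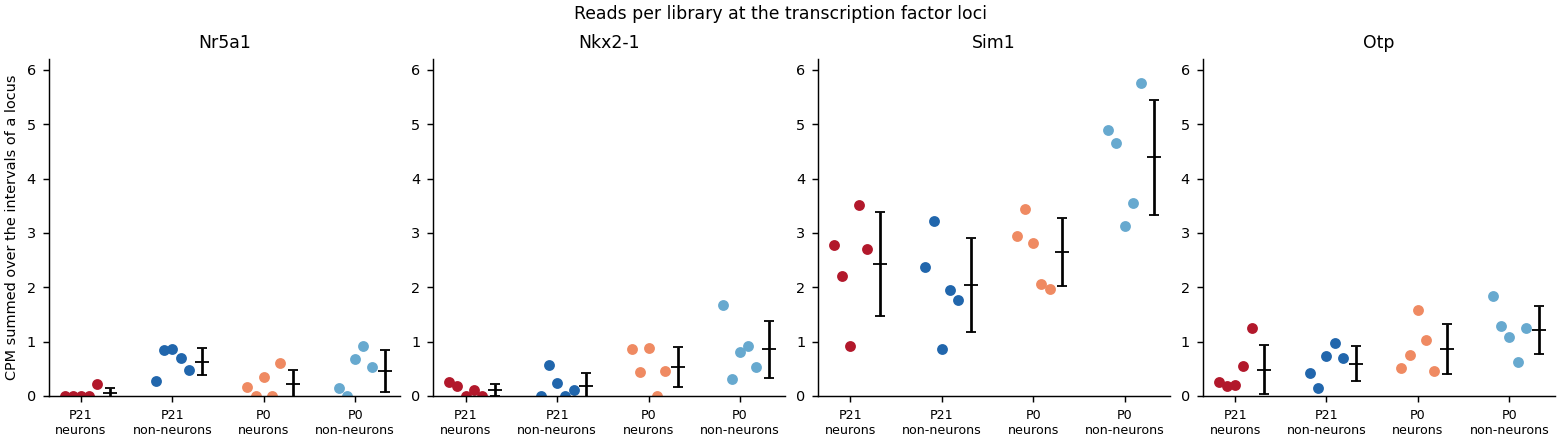
CPM of each library summed over the intervals of a locus, on 1 axis for Nr5a1, Nkx2-1, Sim1 and Otp, for P21 neurons, P21 non-neurons, P0 neurons and P0 non-neurons. Points are libraries and bars are mean ± SD (n = 5). Sim1 reaches 5.76 CPM in P0 non-neurons, and Nr5a1, Nkx2-1 and Otp stay under 2 CPM.

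The share of falls in non-neurons was near that of all intervals. In the fit without a filter 4 of the 20 transcription factor intervals (20%) fell with age in non-neurons, against 19.3% of all intervals, and limma-voom called 6, with Nkx2-1 intervals 1 and 5 besides. Oxt/Avp interval 4 (chr2:130406421-130406974, 553 bp), between intervals 3 and 5, fell as well, with 0, 2, 0, 0 and 2 reads in P21 non-neurons and 8, 11, 7, 0 and 4 in P0 non-neurons (8.88-fold, edgeR adjusted p = 0.00165). Its neurons had 2, 7, 0, 5 and 0 reads at P21 and 5, 5, 1, 5 and 7 at P0, a log2 difference of -1.29 ± 0.68 (SE; adjusted p = 0.124 in edgeR). The interaction was not called (adjusted p = 0.457). The share that changed in either direction was 36.4% of all intervals. In neurons 0 of the 20 changed with age in edgeR, against 39.4% of all intervals, with 2 at an unadjusted p under 0.05 and 3 called by limma-voom. The 3 were Sim1 intervals 5 and 6 and Nkx2-1 interval 1, all lower at P21. Between neurons and non-neurons 3 of the 20 were called at P21, against 21.4% of all intervals, and limma-voom called 2, Nr5a1 interval 1 and Sim1 interval 7. Otp interval 4 was also lost with library totals alone (adjusted p = 0.0558) and with upper-quartile scaling (0.0510). At P0 0 of the 20 were called, against 5.52%, with 1 at an unadjusted p under 0.05 and 0 called by limma-voom. The interaction was called at 0 of the 20, against 8.2% of all intervals, with 2 at an unadjusted p under 0.05 and 0 called by limma-voom. Of the 20 intervals, 1 had its highest pooled CPM in P21 neurons, 3 in P21 non-neurons and 4 in P0 neurons, and the other 12 had it in P0 non-neurons. Over the 17866 untested intervals with reads these shares were 15.5%, 22.2%, 26.2% and 36.0%, so low intervals in general were most often highest at P0.

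Small counts carried a further limit. Intervals with exactly 2 reads were 0.834 to 0.970 times as many as those with 1 read in each library, those with 3 were 0.539 to 0.637 times as many as those with 2, and those with 4 were 0.837 to 0.972 times as many as those with 3. Even numbers were thus more frequent than a smooth decline gives. The sources used here do not say whether both mates of a read pair were counted, and counting intervals assume that reads are independent.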

How the data were processed

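Per the labels' protocols, DNA of sorted nuclei was cut with SmaI and then XmaI, amplified from adaptors, sheared and sequenced as read pairs. Per the submitters' processing notes, the mm9 build was used with Bowtie 0.12.9, FastQC 0.10.1 and cutadapt. The rule that gave reads to intervals is not stated in these sources. The deposited table holds a raw read count per interval and library, as whole numbers with unequal totals. Column names give the age, a letter and the replicate number. The letter N was read as neurons and G, by the title's word glia, as non-neurons. All columns were used.

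Intervals were kept with filterByExpr (minimum count 10) of edgeR 4.0.16 in R 4.3.3. After TMM scaling, glmQLFit (robust) fitted the 20 libraries with 1 mean for each group, and glmQLFTest was run for 5 comparisons. The Benjamini-Hochberg adjusted p was taken over all intervals tested, and 0.05 was the threshold. A standard error is the log2 fold change divided by the square root of the F statistic. The 95% interval of a fold change is the normal one from that error. Fitting was tested on simulated counts of the intervals that passed the filter, which does not cover the fit without a filter. Reads carry no molecular identifiers, so counting intervals and floors of 3 reads cover counting error only.

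The windows, lists and tests were chosen with earlier results of these data known. Group means are given by locus, and values of all 20 libraries for up to 2 called intervals per window with the largest change. The Pomc interval, interval 4 of Oxt/Avp and the low intervals called without a filter were added after their values were seen. Replicate numbers did not pair samples under the rule applied, which is given with the alternatives. A list of other hypothalamic genes and the match of cut-site spacing to a genome were not analysed here, since no genome of either build was used. Alternatives were other scalings and filters, DESeq2 1.42.0, limma-voom (limma 3.58.1), fits of the compared groups only, leaving out each library and a replicate block. Plots used matplotlib 3.10.9.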

Additional observations from a re-analysis of the deposited data

Results flagged for a closer look

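A sample far from the 4 others of its group was looked for in 40 groups of 5 values, and 3 were found. For normally spread values chance flags about 1 in 20 groups, so 3 of 40 is not an unusual number. P0 neuron replicate 1 had 9.0 CPM at Oxt/Avp interval 5, against 4.22 to 5.32 in the other P0 neuron libraries. Without it the fall in neurons with age was -1.47 on the log2 scale (edgeR adjusted p = 3.33e-05). P0 neuron replicate 2 had 2.25 CPM at Oxt/Avp interval 3, against 1.04 to 1.21 in the others, and without it the rise in neurons was 1.22 (adjusted p = 0.00597). P21 neuron replicate 5 had 0.226 CPM summed over the Nr5a1 intervals, from 2 reads, and the other P21 neuron libraries had 0. Where the 4 others are 0, any read is flagged. The part of these libraries' preparation in the values was not tested.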

How the results depend on the processing

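The fall of Oxt/Avp interval 5 in both cell types passed the test under every alternative run and without each library, at -1.99 to -1.47 on the log2 scale. Counts of called intervals among the 4 in the main test were 1 (neurons against non-neurons, P21), 0 (P0), 2 (age, neurons), 1 (age, non-neurons) and 0 (interaction). In the same order, 35.8%, 9.78%, 57.3%, 54.3% and 14.1% of all tested intervals were called. At P21 the count was 0 with at least 20 reads in 5 libraries, which leaves Oxt/Avp interval 3 untested. It was also 0 with upper-quartile scaling and with the length trend removed. With no filter it was 4 of 26, against 21.4% of all intervals. With age in neurons it was 1 with the 20-read filter and with the length trend removed. With age in non-neurons it was 2 with library totals alone and with limma-voom. With no filter it was 6 of 26 there, against 36.4% of all intervals. Without single libraries these counts ran from 0 to 1, from 1 to 2 and from 1 to 2. The cause was not tested where none is named. The median change over all intervals with age was 0.26 (log2) in both cell types with totals alone, against 0.06 in neurons and 0.03 in non-neurons with TMM, and -0.25 at P21 with upper-quartile scaling, against -0.06. Same-numbered samples of a pair of groups deviated together at r = -0.08 to 0.32, and at most 2 of 5 correlated best with their own number, so numbers were not taken to pair samples. With a replicate block the counts were 1, 0, 2, 2 and 0, the added one being Pomc in non-neurons (adjusted p = 0.0402). The restriction to intervals placed in a gene by cut-site spacing was not run. The filter on low counts kept all 22 transcription factor intervals out of the main test.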
